A study of Mus musculus with 9 samples.

Results

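The miR-322, miR-503, miR-351, miR-542 and miR-450 microRNAs (miRNAs) are encoded side by side on the mouse X chromosome, and their signal was measured here in isolated glomeruli of mice with autoimmune glomerulonephritis (GN). The array probes were chosen by name, taking every probe for miR-322, miR-503, miR-351, miR-542, miR-450a or miR-450b with any arm suffix and without a star. This gave 8 of the 1135 miRNA probes, namely mmu-miR-322, mmu-miR-503, mmu-miR-351, mmu-miR-542-5p, mmu-miR-542-3p, mmu-miR-450a, mmu-miR-450b-5p and mmu-miR-450b-3p, written below without the species prefix. The cluster was picked for description because its level against control was already known to be lower, so its differences from control are given as a description without a test. The control group was C57BL/6 mice of 9 months of age, the early GN group was B6.MRLc1 mice of 9 months and the late GN group was B6.MRLc1 mice of 14 months, with 3 female mice and 3 arrays in each group. In the congenic strain B6.MRLc1, the distal part of chromosome 1 of C57BL/6 is replaced by that of MRL/MpJ, a strain prone to lupus. For early GN the deposited strain field gives C57BL/6, and the series text swaps the ages of both GN groups. Sample titles were used to assign the groups for that reason. Because late GN was sampled 5 months later in life than control and early GN, age and stage cannot be told apart in either comparison with late GN. Strain and disease cannot be told apart in either comparison with control. No mouse was treated, and glomeruli were collected by perfusion with beads.

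Clustered miRNAs are cut from shared or neighbouring transcripts and often keep a common pattern of expression. Each miRNA then selects its own targets, mainly through the seed near its 5′ end. The human counterpart of miR-322 is miR-424, and miR-322 and miR-503 are known for lowering cell cycle genes such as cyclin D1, cyclin E and CDC25A and for promoting cell cycle exit during muscle differentiation. A glomerulus holds podocytes, endothelial cells and mesangial cells, and the array signal is that of all of them together, so fewer cells of a type and less miRNA per cell cannot be told apart.

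The mature sequences of the cluster are shown because they group its members by target recognition. They were taken from RefSeq (GRCm38.p6), in which all 8 probes matched a mature miRNA, with array names that lack an arm suffix read as the 5p arm. Capitals mark the seed, bases 2 to 8.
miR-322: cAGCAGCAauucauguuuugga
miR-503: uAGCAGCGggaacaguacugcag
miR-351: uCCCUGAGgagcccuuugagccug
miR-542-5p: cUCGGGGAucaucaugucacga
miR-542-3p: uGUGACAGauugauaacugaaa
miR-450a: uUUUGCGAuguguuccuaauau
miR-450b-5p: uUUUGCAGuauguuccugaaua
miR-450b-3p: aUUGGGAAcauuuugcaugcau
The 8 mature miRNAs carry 8 different seeds. Only the seeds of miR-322 and miR-351 are shared with well known families elsewhere in the genome, which these sequences show.
miR-16: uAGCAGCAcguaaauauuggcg
miR-125b-5p: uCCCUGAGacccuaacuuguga
The seed of miR-322 is that of the miR-15/16 family, and the seed of miR-503 differs from it in its last base. The seed of miR-351 is that of miR-125a-5p and miR-125b-5p. The seeds of miR-450a and miR-450b-5p differ from each other although both arms begin with the same bases.

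In GRCm38.p6 the cluster lies on the minus strand at chrX:53047997-53054349, a span of 6353 bases between Hprt and Plac1, with 7 hairpins. In the direction of transcription their order is Mir322, Mir503, Mir351, Mir542, Mir450-2, Mir450-1 and Mir450b, and both Mir450-1 and Mir450-2 give miR-450a. The first 3 hairpins lie inside the long non-coding RNA gene C430049B03Rik (chrX:53053112-53057190), and the other 4 lie outside it. The gap between Mir351 and Mir542, 3767 bases, is the widest between neighbours, and the narrowest is 54 bases. The hairpins of Mir322 and Mir542 are shown as an example from each side of the wide gap, with the 2 mature arms in capitals.
Mir322: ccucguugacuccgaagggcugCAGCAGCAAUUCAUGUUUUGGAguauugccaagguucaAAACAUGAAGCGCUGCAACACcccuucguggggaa
Mir542: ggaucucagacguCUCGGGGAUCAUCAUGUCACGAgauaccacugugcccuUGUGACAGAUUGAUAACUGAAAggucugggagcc

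Values are linear fluorescence intensities as deposited, globally normalized by the authors, and a probe that the extraction software did not list on an array has no value there. Of the 8 probes, 6 were listed on all 9 arrays, among 411 such miRNAs. The glomerular arrays listed all 7 podocyte-associated miRNAs checked (miR-26a, 4 members of the miR-30 family, miR-23b and miR-24) on all 9 arrays. Of the 2 skeletal and heart muscle miRNAs on the array, miR-206 was listed on none and miR-133a on all 9. Tubule, leukocyte and red blood cell miRNAs were listed as well. The array-wide shift, the median over the 411 miRNAs of the log2 difference against the mean of control was -1.03, -0.61 and 0.51 for arrays 1 to 3 of early GN, and it was 0.33 to 0.44 for late GN. The early GN arrays therefore stood apart from each other array-wide, and array 3 was the bright one. For this reason the differences of the 6 miRNAs are given also after setting every array to a common median over the 411 miRNAs. That scaling would remove a true general change as well. Other differences are with the deposited normalization unless stated.

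miR-322, the first miRNA of the cluster, had intensities of 2354, 2172 and 2570 in control, 1057, 891 and 2121 in early GN, with 1602, 1286 and 1790 in late GN. All 6 GN arrays lay below all 3 control arrays, and early GN array 3 came close to control. The mean was 2365 ± 199 in control, 1356 ± 667 at the early stage and 1559 ± 255 at the late stage (SD, n = 3), or 0.573 and 0.659 of control. On the log2 scale the difference from control was -0.91 at the early stage and -0.61 at the late stage, with a standard error (SE) of 0.44. After common-median scaling these were -0.52 and -0.93, with an SE of 0.20, so that the order of the stages was exchanged.

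miR-503, whose hairpin begins 200 bases after that of miR-322 and which shares its cell cycle role, gave 103, 93.3 and 83.4 in control, 36.3, 31.5 and 86.0 in early GN, with 74.9, 57.2 and 78.3 in late GN. The late GN arrays all lay below control, whereas early GN array 3 lay within the control range and the other 2 early arrays were far below it. The log2 difference from control was -1.01 at the early stage and -0.42 at the late stage, and -0.63 and -0.73 after common-median scaling. Across the 9 arrays miR-503 followed miR-322 more closely than any other pair of cluster miRNAs followed each other, with a root mean square difference of 0.18 between their log2 profiles.

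miR-351, the cluster member with the miR-125 seed, was at 212.9, 211.1 and 213.9 in control, 106.0, 108.3 and 222.9 in early GN, with 134.5, 152.9 and 147.5 in late GN. The 3 control arrays were nearly equal, the late GN arrays formed a separate lower group, and early GN array 3 exceeded every control array. The log2 difference from control was -0.64 at the early stage and -0.55 at the late stage. After common-median scaling it was -0.25 in early GN, the smallest of the 6 miRNAs there, and -0.87 in late GN.

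**Figure D1:**
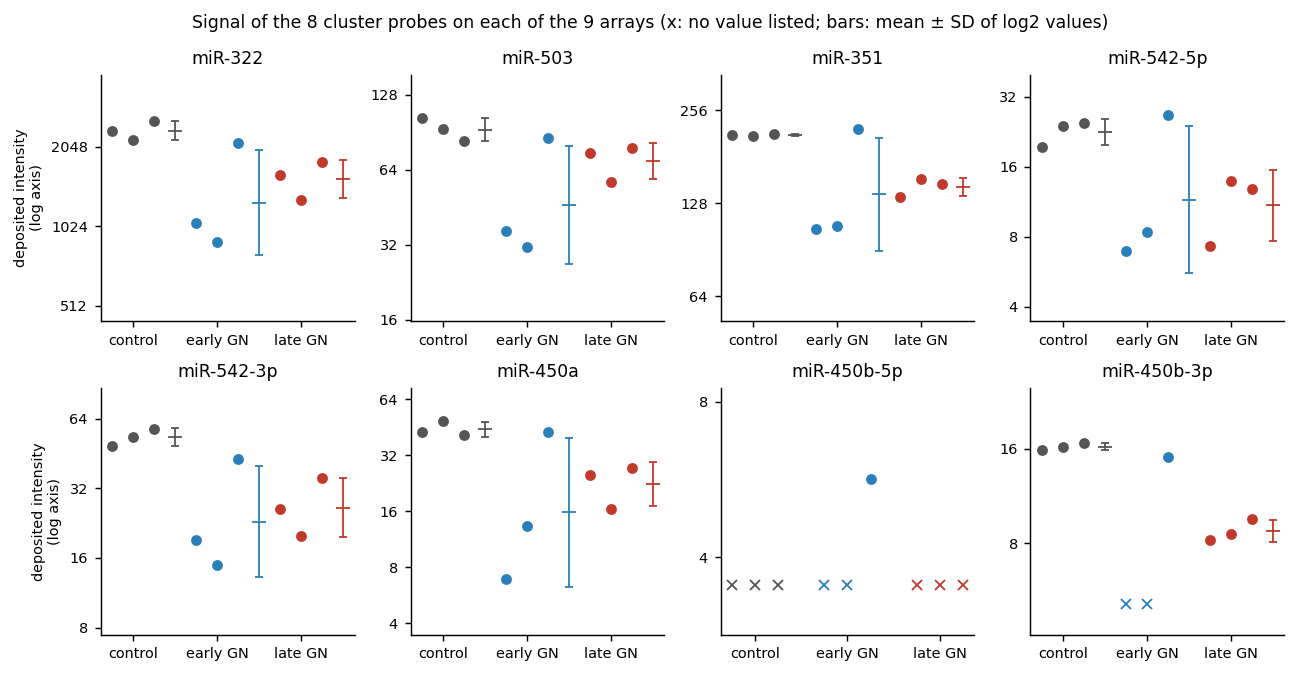
Deposited intensity (vertical log axis, 1 panel per probe) of the 8 cluster probes on the 3 control, 3 early GN and 3 late GN arrays. Points are arrays, bars are the mean ± SD of log2 values for groups with 3 values, and crosses mark arrays without a listed value; early GN array 3 sits near or within the control range for all 6 miRNAs listed on every array, whereas the other 2 early arrays are low.

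Both arms of the miR-542 hairpin were measured. miR-542-3p, which lowers survivin in human cells, had intensities of 48.7, 53.3 and 58.0 in control, 19.1, 14.9 and 42.7 in early GN, with 26.0, 19.9 and 35.6 in late GN. As with miR-322, every GN array lay below every control array. The log2 difference from control was -1.21 at the early stage and -1.01 at the late stage, and -0.83 and -1.33 after common-median scaling.

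miR-542-5p, from the other arm, gave 19.5, 24.1 and 24.6 in control, 6.93, 8.36 and 26.6 in early GN, with 7.32, 13.9 and 12.8 in late GN. Late GN lay wholly below control, and early GN array 3 was the highest of all 9 arrays. The log2 difference from control was -0.97 at the early stage and -1.05 at the late stage, and -0.59 and -1.36 after common-median scaling. The within-array log2 difference of the 3p arm from the 5p arm was 1.15 to 1.32 in control, 0.68 to 1.46 in early GN and 0.51 to 1.83 in late GN, so the GN ranges enclosed that of control.

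miR-450a, which can come from either of 2 hairpins, had intensities of 42.5, 49.1 and 40.9 in control, 6.92, 13.3 and 42.6 in early GN, with 24.99, 16.5 and 27.3 in late GN. Early GN arrays 1 and 2 were the lowest, array 3 was within the control range, and the late GN arrays were all below control. Its log2 difference from control, -1.48 at the early stage and -0.97 at the late stage, was the largest of the cluster in early GN, but this rank did not hold. Without early GN array 1 miR-542-3p was the largest (-1.08, with miR-450a at -0.89), and miR-322 was with a pseudocount of 16 (-0.90 against -0.82 for miR-450a) and with normexp background correction and quantile normalization (-0.55 against -0.20). After common-median scaling the values of miR-450a were -1.10 and -1.29.

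The other 2 probes, both of the miR-450b hairpin, were at the limit of the arrays. miR-450b-3p was listed on 7 arrays, at 15.8, 16.2 and 16.7 in control, 15.1 on early GN array 3 and 8.18, 8.55 and 9.54 in late GN, and it was not listed on early GN arrays 1 and 2. The late GN values were 0.539 of the control mean without overlap, a log2 difference of -0.89 (SE 0.16) in a fit of the 488 miRNAs listed on all 6 arrays of these groups. Before the factor of each array was applied, however, its scanner signal exceeded the mean of the blank spots by only 3.94 to 6.19 units in control and 2.52 to 8.23 in late GN, ranges that overlapped, where the SD of blank spots was 3.02 units. miR-450b-5p was listed on early GN array 3 alone, at 5.67, and on the other 8 arrays its scanner signal was between -5.12 and 0.23 units from the blank mean.

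The nearness to background set how firmly the dim members can be read. Above the mean of the blank spots, the scanner signal of miR-322 was 694 to 1406 units, that of miR-351 63.5 to 124 units and that of miR-503 23.9 to 55.2 units. For miR-542-3p it was 8.52 to 33.2 units, for miR-450a 5.68 to 25.3 units and for miR-542-5p 3.52 to 14.4 units. The lowest values of the last 2 were thus less than 2 blank SDs above the blank mean, which was the case for miR-450a on early GN array 1 and for miR-542-5p on early GN array 1 and late GN arrays 1 and 2. The deposited values of dim probes also departed from the scanner median, after blank subtraction and scaling, by 2.23 to 3.09 scanner units (SD over probes of an array), a spread similar to that of the blank spots.

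**Figure D2:**
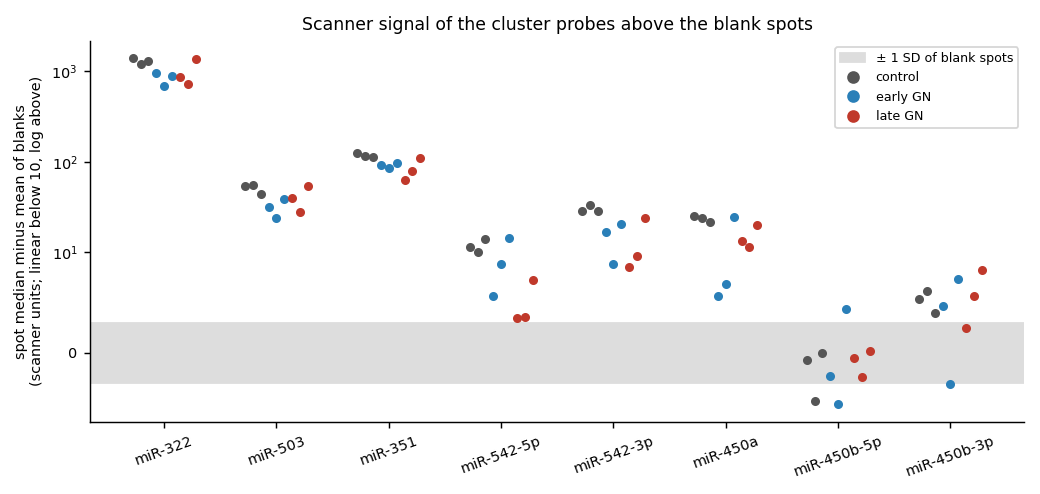
Scanner signal of the 8 cluster probes above the mean of the blank spots (vertical axis in scanner units, linear below 10 and log above), with 1 point per array coloured by group and the grey band showing 1 SD of blank spots, 3.02 units. miR-322 stands at 694 to 1406 units, miR-542-5p at 3.52 to 14.4 units, and the miR-450b probes lie at or near the band.

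Over the 6 miRNAs listed on all arrays, the median log2 difference from control was -0.99 at the early stage and -0.79 at the late stage, against -0.38 and 0.45 for all 411 miRNAs. In early GN all 6 were below the control mean, as were 76.9% of the 411. There 2 of 6, miR-322 and miR-542-3p, lay wholly below control, as did 6.33% of the 411. In late GN all 6 were below the control mean (39.7% of the 411) and all 6 lay wholly below control (21.7% of the 411). After common-median scaling 5 of 6 lay wholly below control in early GN (23.4% of the 411), all but miR-542-5p, and 6 of 6 did in late GN (35.5% of the 411). These counts describe the values by which the cluster was chosen.

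The SE of each difference, 0.44 with the deposited normalization, came from a limma fit of all 9 arrays with 1 variance for every miRNA. It held the array-wide shifts among the early GN arrays and was not the spread of late GN and control alone. Single arrays moved several of these differences by over 1.5 times. Without early GN array 3 the median of the 6 miRNAs in early GN was -1.51, with miR-351 at -0.99 and miR-542-5p at -1.57, and without early GN array 1 miR-542-5p was -0.60 and miR-450a -0.89. In late GN, miR-503 was -0.28 without array 2.

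**Figure D3:**
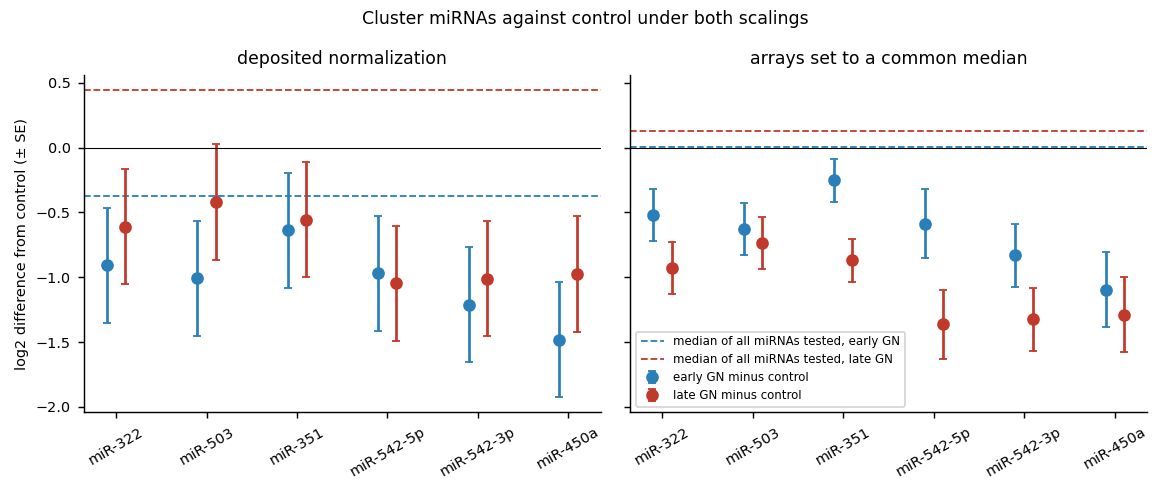
Log2 difference from control of the 6 cluster miRNAs listed on all arrays (points, with the SE of the limma fit) for early GN and late GN, with the deposited normalization on the left and with arrays set to a common median on the right. Dashed lines are the median of all 411 miRNAs in the same comparison, and every point lies below the line of its own comparison.

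The difference between the cluster and the rest of the same array does not depend on a single factor per array. The mean profile of the 6 miRNAs minus the median profile of the 411 was -0.04, -0.00066 and 0.01 on the control arrays, -0.53, -0.88 and -0.56 on the early GN arrays, and -1.27, -1.35 and -0.87 on the late GN arrays, all on the log2 scale. Every GN array was below every control array, and early GN array 3, which looked like control in intensity, was -0.56 here, between the other 2 early arrays. Late GN array 3 and early GN array 2 were nearly level, and the other 2 late arrays were the lowest. Between groups, the median difference of the cluster minus that of all miRNAs was -0.61 at the early stage and -1.24 at the late stage. It was smaller, -0.20 and -0.41, with normexp background correction and quantile normalization, which change more than a factor.

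**Figure D4:**
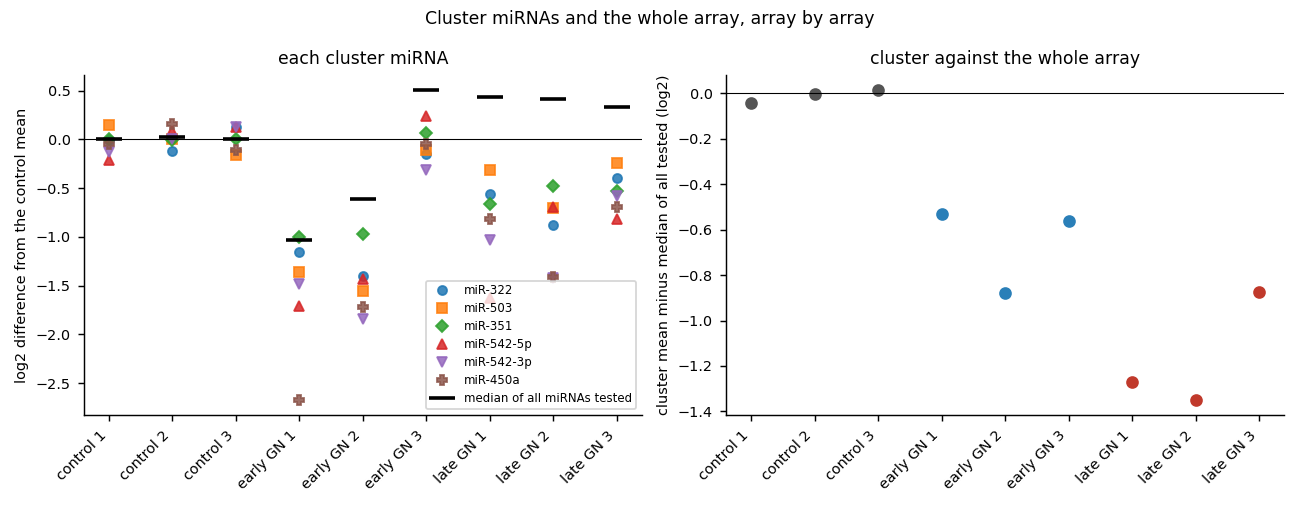
Left, log2 difference from the control mean of each of the 6 cluster miRNAs (symbols) and the median of all 411 miRNAs (black bars) on each array, with the deposited normalization. Right, mean of the 6 minus the median of the 411 on each array, from -0.04 to 0.01 in control, -0.88 to -0.53 in early GN and -1.35 to -0.87 in late GN.

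The arrays lay on 5 slides, and only 1 slide held control and GN together, control array 3 and early GN array 1. Within it the median log2 difference of the 6 miRNAs was -1.44, against -1.01 for all 411, and after common-median scaling -0.49 against -0.06. Single differences ran from -1.01 for miR-351, level with the median of the 411, to -2.57 for miR-450a, with only 1 array of each group. No slide held late GN with another group, so late GN has no such within-slide value. The scanner gain was 35 or 36 on all arrays but late GN array 3, where it was 37.

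Late GN was compared with early GN to see whether the cluster differed between these groups, in which stage and age cannot be told apart. The choice of the cluster did not use this contrast, although the arrays are the same. The median log2 difference of the 6 was 0.25, against 0.70 for all 411. With the deposited normalization 5 of 6 were higher in late GN, as were 97.1% of the 411, and in 0 of 6 did the late GN arrays lie wholly above early GN (21.4% of the 411). By limma, 0 of 6 passed in the higher direction (1.46%), with differences from -0.08 for miR-542-5p (adjusted p = 0.89) to 0.59 for miR-503 (adjusted p = 0.31). At an unadjusted p under 0.05, 124 of the 411 were higher and 1 was lower in this comparison.

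The direction turned with the scaling. With a common median, 6 of 6 were lower in late GN (50.4% of the 411), and miR-351 and miR-542-5p lay wholly below early GN (18.5% of the 411). Their differences were -0.62 (SE 0.17, adjusted p = 0.10 by limma) and -0.78 (SE 0.27, adjusted p = 0.14), and the exact permutation test gave p = 0.1 for each, 2-sided, the smallest that 3 arrays against 3 allow. The remaining 4 had exact p values of 0.2 to 0.7. With common-median scaling 0 of 6 passed in the lower direction (0.243%). Without early GN array 3 and with the deposited normalization, by contrast, 5 of 6 passed in the higher direction (91.5% of the 411), with differences from 0.43 for miR-351 (adjusted p = 0.044) to 1.22 for miR-450a (adjusted p = 0.0045). These data gave no single direction for the cluster between the stages.

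The members differed among themselves in how closely they kept to the common profile. The root mean square difference from the mean profile of the 6 was 0.19 for miR-322, 0.23 for miR-542-3p, 0.24 for miR-503, 0.30 for miR-351, 0.32 for miR-542-5p and 0.42 for miR-450a. The farthest pair was miR-351 and miR-450a, at 0.69, and the 2 miRNAs farthest from the mean, miR-542-5p and miR-450a, were also those whose signal came nearest to the blanks.

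Grouped by position, the 3 miRNAs after the wide gap (miR-542-3p, miR-542-5p and miR-450a) were lower against the 3 before it (miR-322, miR-503 and miR-351) on the late GN arrays and on early GN arrays 1 and 2. The within-array log2 difference between the means of these groups was -3.44, -3.14 and -3.20 in control, -4.04, -3.61 and -3.24 in early GN, with -3.91, -3.75 and -3.56 in late GN. The late GN arrays were all below control, and early GN array 3 lay within the control range. Relative to control this was a shift of -0.37 at the early stage and -0.48 at the late stage. The grouping was chosen after the values were seen and was not tested. With normexp and quantile normalization, late GN differences from control were -0.64, -0.38 and -0.54 for miR-322, miR-503 and miR-351. They were -0.43, -0.26 and -0.27 for miR-542-3p, miR-542-5p and miR-450a, so the shift did not hold there. With a pseudocount of 16 the first 3 were at -0.61, -0.35 and -0.51 in late GN. The last 3 were at -0.70, -0.51 and -0.64 with it. The last 3 probes are those nearest to the blank signal, and the part of background in this shift was not tested.

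The star strands come from the opposite arms of the same hairpins. miR-322* was at 662.6, 205.6 and 562.0 in control, 271.0, 295.3 and 626.7 in early GN, with 336.1, 340.3 and 451.3 in late GN. Control array 2 was the lowest of all 9 arrays, and the groups overlapped, unlike those of miR-322 itself. The log2 difference of miR-322* from control was -0.20 at the early stage and -0.19 at the late stage, and 0.18 and -0.50 after common-median scaling.

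miR-503* gave 42.7, 51.7 and 32.6 in control, 22.0, 20.6 and 43.8 in early GN, with 13.3, 26.8 and 32.9 in late GN, and miR-351* gave 16.01, 18.5 and 16.8 in control, 7.73, 5.79 and 12.9 in early GN, with 19.3, 15.1 and 11.3 in late GN. For miR-351* the early GN arrays were all below control and late GN overlapped control, and for miR-503* both stages overlapped control. The within-array difference of miR-351 from miR-351* was 3.52 to 3.73 in control, 3.78 to 4.23 in early GN and 2.80 to 3.70 in late GN, and that of miR-503 from miR-503* was 0.85 to 1.36 in control, 0.62 to 0.98 in early GN and 1.09 to 2.50 in late GN. The star strands of miR-450a were close to undetected: miR-450a-1* was listed on 3 arrays and miR-450a-2* on 0.

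**Figure D5:**
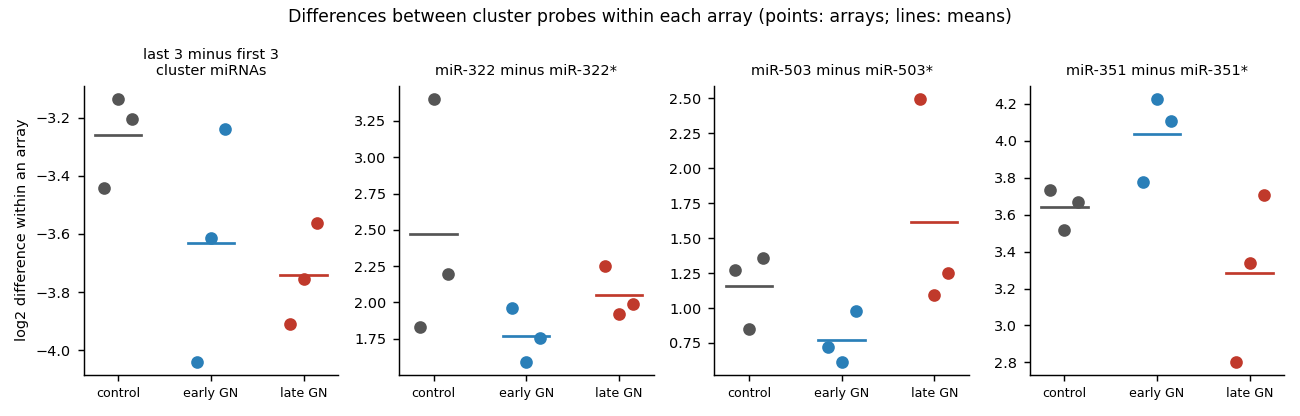
Log2 differences between probes within each array (points; lines are group means) for the last 3 minus the first 3 cluster miRNAs and for miR-322, miR-503 and miR-351 minus their star strands. All values are as deposited. In the first panel the late GN arrays, -3.91 to -3.56, lie below control, -3.44 to -3.14, and in the others the late GN range overlaps that of control.

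The relatives that share a seed with the cluster but lie on other chromosomes were set beside it. The 5 members of the miR-15/16 family measured besides miR-322 were all lower at both stages (76.9% and 39.7% of the 411), with medians of -0.85 and -0.35. Of these, miR-497 was only -0.04 in late GN, and it was above control in early GN (0.12) after common-median scaling. By limma 0 of 5 passed an adjusted p under 0.05 in the lower direction in early GN (0% of the 411), and 1 of 5, miR-195, in late GN (0.243% of the 411). With common-median scaling 1 of 5 passed in early GN (3.89% of the 411) and 3 of 5 in late GN (29.9% of the 411). miR-16, a broadly expressed member, was at 4146, 4548 and 3920 in control, 1291, 928 and 4281 in early GN, with 2180, 2736 and 2859 in late GN. As for miR-503 and miR-450a of the cluster, early GN array 3 was in the control range and late GN lay wholly below it. The within-array log2 difference of miR-322 from miR-16 was -1.07 to -0.61 in control, -1.01 to -0.06 in early GN and -1.09 to -0.44 in late GN, so the groups overlapped.

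miR-195 differed between late GN arrays by much more than miR-322 did, at 1257, 169.6 and 834 on arrays 1 to 3 against 1689 to 1962 in control. miR-497, which is encoded beside miR-195, was at 454 to 593 in control, 331 to 774 in early GN and 506 to 548 in late GN, and the groups overlapped. Of the miR-125 family, miR-125a-5p and miR-125b-5p were lower at both stages (76.9% and 39.7% of the 411), with medians of -0.70 and -0.29. By limma 0 of 2 passed in either stage (0% and 0.243% of the 411). With common-median scaling 0 of 2 passed in early GN (3.89% of the 411) and 2 of 2 in late GN (29.9% of the 411). The within-array log2 difference of miR-351 from miR-125b-5p was -2.44 to -2.22 in control, -2.43 to -2.11 in early GN and -2.77 to -2.41 in late GN.

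Among all miRNAs outside the cluster, the 5 whose log2 profile over the 9 arrays was nearest to the mean profile of the 6 were miR-10a* (root mean square difference 0.15), let-7g (0.16), miR-30b (0.17), miR-10a (0.19) and miR-652 (0.19). This measure is the same under any single factor per array. miR-10a* had 92.7, 101.6 and 92.9 in control, 37.8, 35.04 and 94.2 in early GN, with 56.5, 64.0 and 62.6 in late GN, which repeats the low early GN arrays 1 and 2, the control-like array 3 and the separate late GN group of the cluster. Among the 6 cluster miRNAs, each itself part of the cluster mean, only miR-322 (0.19) came within the range of these 5. Of the 5, miR-652 alone is also X-linked. Of 24 other X-linked miRNAs listed on all arrays, 16 were lower at the early stage and 7 at the late stage, with medians of -0.46 and 0.56, against 252 and 138 of the 318 miRNAs with a known chromosome, with medians of -0.42 and 0.25.

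Marker miRNAs of glomerular and other cells moved between the groups as well, and their part in the cluster values was not tested. The summed intensity of the 7 podocyte-associated miRNAs was 63987 to 70589 in control, 28433 to 68164 in early GN and 41563 to 46934 in late GN. That of both arms of endothelial miR-126 was 24616 to 27460, 10090 to 21872 and 15470 to 20716, and that of the 3 measured mesangial and smooth muscle miRNAs 8860 to 9900, 4084 to 8989 and 6714 to 7979. In late GN all 7 podocyte-associated and both endothelial miRNAs were lower than in control (39.7% of the 411), with medians of -0.62 and -0.56. The sum of 5 leukocyte miRNAs went the other way, from 223 to 275 in control to 375 to 554 in late GN, with 93.9 to 404 in early GN. Of the 4 leukocyte miRNAs listed on all arrays, however, 1 was lower in late GN (39.7% of the 411). An unlisted value counted as 0 in these sums. The 3 tubule miRNAs summed to 786 to 1142, 367 to 1066 and 1065 to 1274. In late GN 1 of these 3 was lower than in control, as were 2 of the 3 mesangial and smooth muscle miRNAs (39.7% of the 411). The red blood cell list, with miR-451 and miR-144 measured, summed to 840 to 961 in control, 206 to 797 in early GN and 430 to 689 in late GN. Of the muscle list, miR-133a alone gave a signal, at 14.7 to 20.9, 4.41 to 16.02 and 9.23 to 11.3.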

How the data were processed

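Glomerular RNA of 1 mouse per array was labelled in a single colour, hybridized to a 3D-Gene chip, read with the 3D-Gene scanner and extraction software, and globally normalized by the authors; the deposited values are intensity on a linear scale, and the rule for listing a probe is not given in the sources used here. Values were log2 transformed and fitted with limma 3.58.1 in R 4.3.3, with all 9 arrays and 6 residual degrees of freedom, with Benjamini-Hochberg adjustment over 411 miRNAs (threshold 0.05, 2-sided). With the deposited normalization, empirical Bayes moderation gave every miRNA a common variance. After common-median scaling the variance differed between miRNAs. Exact permutation tests and figures used Python 3.11.15 with scipy 1.17.1 and matplotlib 3.10.9. The number of arrays limits the precision. The calling step was tested on simulated data without the array-wide shifts of early GN, so that test does not bear on calls under such shifts. The text names every cluster probe, their star strands, seed relatives, marker lists and the 5 miRNAs of most similar profile. The members, lists and tests were chosen with earlier results of these data known. Blank spots (1818 per array) served as background. Alternatives were other scalings (common median, normexp with an offset of 50 and quantile, 75th percentile, spike controls), a pseudocount of 16, unlisted values at the lowest listed value, the deposited series table, slide or replicate blocks, other sets of arrays or miRNAs, trend and robust moderation, Dunnett's test and the methods' t-test, and each array left out. The common median together with a slide or replicate block was added after the data were seen.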

Additional observations from a re-analysis of the deposited data

How the results depend on the processing

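The cluster median stayed below 0 in early GN and late GN against control under all 15 settings and all 9 omissions of an array. Each of the 6 miRNAs did as well. These counts describe the values by which the cluster was chosen and are no support for them. Several settings, such as the series table, the replicate block and trend and robust moderation, could not change the median. Leaving out an array of the group not compared could not change it either. In early GN the median moved beyond the spread between arrays only with normexp and quantile normalization (-0.22). In late GN it became -1.11 with a common median or with the replicate block and a common median, -1.13 with slide as a random block and a common median, -0.94 and -1.22 at the 75th percentile of listed and of all probes, -0.56 with a pseudocount of 16 and -0.41 with normexp and quantile. Leaving out 1 array gave -1.51 to -0.73 in early GN, -0.92 to -0.67 in late GN and -0.02 to 0.66 for late against early GN. The dim probes, whose signal is near the blanks, and the small number of arrays limit all of these values.

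The number of miRNAs called among those tested depended on the scaling and on which arrays and miRNAs entered the fit. In early GN, 1 was called with the deposited normalization (1 higher, 0 lower), 44 with a common median (28 higher, 16 lower), 15 at the 75th percentile of listed probes, 22 at that of all probes, 15 with the pseudocount and 55 with normexp and quantile, and 0 with the spike controls, a fit restricted to both groups, the miRNAs listed on all 6 arrays, unlisted values at the lowest value, the slide block, Dunnett's test and the methods' t-test (at an unadjusted p under 0.05, limma with the deposited normalization had 9 higher and 56 lower). In late GN, 17 (16 higher, 1 lower) became 255 with a common median (132 higher, 123 lower), 180 (105 higher, 75 lower) and 159 (37 higher, 122 lower) at the 75th percentiles, 33 with the spike controls, 42 with the pseudocount, 153 (74 higher, 79 lower) with normexp and quantile, 306 (235 higher, 71 lower) for miRNAs listed on all 6 arrays, 272 (200 higher, 72 lower) in a fit restricted to both groups, 229 (171 higher, 58 lower) by the methods' t-test, 11 with trend and robust moderation, and 0 with unlisted values at the lowest value, with the slide block and with Dunnett's test (83 and 64 higher, 9 and 2 lower, before adjustment at 0.05). For late against early GN, 7 became 1 with a common median, with the spike controls and with trend and robust moderation, 2 with normexp and quantile, 4 with the slide block, and 0 at both 75th percentiles, for the 6-array set, with unlisted values at the lowest value, in a fit restricted to both groups and by the methods' t-test (at an unadjusted p under 0.05, limma had 124 higher and 1 lower). Leaving out 1 array gave 0 to 237 in early GN, 0 to 228 in late GN and 0 to 376 for late against early GN, each highest without early GN array 3; 0 were called in early GN without any 1 control or late GN array, and in late GN without any 1 control array.

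The replicate numbers showed no clear pairing of arrays. Correlations of same-numbered arrays ran from -0.22 to 0.34, and those of differently numbered arrays from -0.47 to 0.30. These ranges cannot exclude a pairing. With the replicate block 1, 16 and 5 miRNAs were called in the 3 comparisons, with 0 cluster miRNAs for late against early GN. With the block and a common median 64, 260 and 1 were called, and with slide and a common median 137, 301 and 43. In the latter fit 2 of the cluster miRNAs were lower for late against early GN (8.27% of all). These were miR-351 (-0.61, adjusted p = 0.026 by limma) and miR-542-5p (-0.84, adjusted p = 0.028). The slide correlation in that fit was negative, -0.34, so arrays of a slide were less alike than arrays of different slides. At a common median without the slide block, limma gave adjusted p values of 0.10 and 0.14 for these miRNAs.

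For late against early GN the sign turned for single miRNAs, and the median of the cluster, 0.25, became -0.45 with a common median, -0.48 with slide and a common median, and -0.37 and -0.66 at the 75th percentiles of listed and of all probes. With a common median, with or without the replicate block, miR-322 was -0.40, miR-503 -0.11, miR-351 -0.62, miR-542-3p -0.50 and miR-450a -0.19. With slide and a common median they were -0.42, -0.10, -0.61, -0.54 and -0.29. At the 75th percentile of listed probes miR-322 was -0.20, miR-503 -0.060, miR-351 -0.53 and miR-542-3p -0.59, and at that of all probes -0.50, -0.35, -0.83 and -0.89, with miR-450a at -0.11. With the spike controls miR-351 was -0.10 and miR-542-3p -0.16. With normexp and quantile miR-322 was -0.091, miR-503 -0.058, miR-351 -0.39 (adjusted p = 0.041), miR-542-3p -0.19 and miR-450a -0.066. Leaving out 1 array gave -0.10 to 0.43 for miR-351, -0.11 to 0.65 for miR-542-3p, -0.45 to 0.52 for miR-542-5p and -0.089 to 1.22 for miR-450a. Scaling changes the array-wide level by construction, and the cause of the other changes was not tested.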
